A study of Homo sapiens with 4 samples.

Results

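The set described here holds the genes whose mRNA was lower after transfection with miR-504 than after transfection with miR-489 in both FaDu and HSC3 cells. A gene was a member if its log2 ratio to the control transfectant was higher after miR-489 than after miR-504 by at least 0.7 in each cell line, and if it gave a signal well above background in both colours on all 4 arrays. The rule selected 121 genes of the 15609 measured on all arrays, out of 30982 gene names that the array carries. Because the members were chosen by the difference between the miRNAs, that difference is described below and was not tested.

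FaDu is an established line derived from hypopharyngeal squamous cell carcinoma, and HSC3 is an established squamous cell carcinoma line derived from tongue. Cells of each line were transfected with miR-489, with miR-504 or with a control miRNA, and total RNA was compared 72 h later on Agilent 2-colour human arrays. RNA of the miRNA transfectant carried Cy5 and RNA of the control transfectant of the same line carried Cy3 on every array. There was 1 array for each miRNA in each line, with no dye swap, so no value has a replicate and no p-value is given. All arrays were on 1 slide, and whether the pair of arrays of a line shared a single control extract was not stated in the sources used here. All 9 epithelial and squamous markers found on the array gave control signals well above background on all arrays, while 0 of 6 fibroblast, 0 of 5 endothelial and 2 of 6 leukocyte markers (CD14 and CD68) were measured.

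A miRNA guides an Argonaute protein to mRNAs that pair with its seed, the short stretch near its 5′ end, and pairing in the 3′ untranslated region usually lowers the mRNA. An excess of a transfected miRNA therefore lowers some mRNAs directly and shifts many others indirectly, and the array does not separate these. miR-489 and miR-504 are both studied as tumour-suppressive miRNAs in squamous cell carcinoma. Their mature sequences are shown because the comparison rests on exchanging one for the other, with the seed (bases 2 to 8) in capitals, from RefSeq on GRCh38.p14.
hsa-miR-504-5p: aGACCCUGgucugcacucuauc
hsa-miR-504-3p: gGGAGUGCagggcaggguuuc
hsa-miR-489-3p: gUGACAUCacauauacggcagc
The miR-504 arms lie on the minus strand at chrX:138667760-138667781 (5p) and chrX:138667724-138667744 (3p), within FGF13. The miR-489 sequence lies on the minus strand at chr7:93483947-93483968, within CALCR. The seeds of these 3 sequences differ from each other. The seed of hsa-miR-504-5p is shared with 1 other human mature miRNA, hsa-miR-4725-5p. The labels name miR-504 without its arm, and so both arms are shown. No transcript sequences were used here, and the number of members with a seed match was not counted.

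Members sat slightly above the control after miR-489 and clearly below it after miR-504. The median log2 ratio of the 121 members was 0.27 on the FaDu miR-489 array and 0.33 on the HSC3 miR-489 array. It was −0.77 on the FaDu miR-504 array and −0.66 on the HSC3 miR-504 array. Over all 15609 genes the corresponding medians were 0.029, 0.030, 0.025 and 0.025, so the members were displaced on all arrays and further on the miR-504 arrays. Which side was further depended on the centring, because with the median of all probes set to 0 the medians of the members were 0.67 and 0.76 after miR-489 and −0.43 and −0.31 after miR-504 in FaDu and HSC3. The median difference between the miRNAs was 1.04 in FaDu cells (range 0.72 to 2.27) and 0.95 in HSC3 cells (range 0.70 to 1.89). Across all genes measured it was 0.018 and 0.019. The difference was larger in FaDu than in HSC3 cells for 86 of the 121 members, and it reached 1 in both lines for 43.

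**Figure D1:**
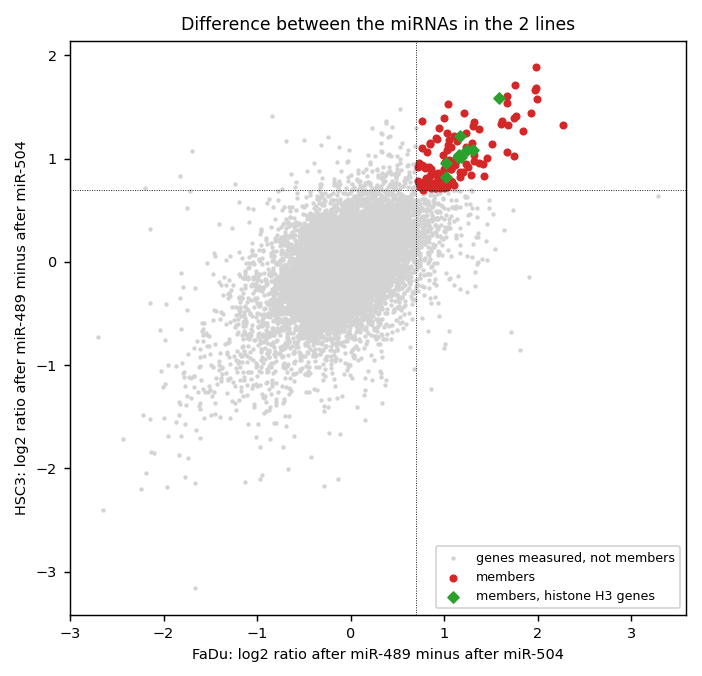
Difference between the log2 ratio after miR-489 and after miR-504 in FaDu cells (x axis) and HSC3 cells (y axis) for each of the 15609 genes measured; dotted lines mark 0.7. The 121 members occupy the upper right by construction of the rule, and the histone H3 genes among them (diamonds) lie between 1.02 and 1.58 in FaDu and between 0.82 and 1.59 in HSC3.

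The threshold passed through a continuous distribution. In FaDu cells 444 of all genes measured (2.84%) had a difference of at least 0.7, as had 293 (1.88%) in HSC3 cells, and the 121 members (0.775%) are those that passed in both. With the sign turned, 761 genes (4.88%) passed in FaDu, 566 (3.63%) in HSC3 and 285 (1.83%) in both, being lower after miR-489 than after miR-504. The members just inside were TMEM16F (RefSeq symbol ANO6), a lipid scramblase, with differences of 0.91 and 0.71 in FaDu and HSC3, the probe A_24_P67638 with 0.92 and 0.71, and UTP15, a factor of ribosome biogenesis, with 0.77 and 0.70. The genes just outside were FRMD5 with 1.04 and 0.70, FLJ22555 with 0.70 and 1.30, and ENST00000359495 with 1.11 and 0.70, where in each case the smaller value fell short of the threshold before rounding. Without the requirement for signals well above background 670 genes passed both differences. Among those not counted were 2 with control signals well above background on all arrays, C4orf13 and ENST00000382990, whose Cy5 signal was not well above background on the FaDu miR-504 array.

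Relative to the control, members differed in which of the miRNAs moved them. On the FaDu miR-504 array 45 members (37.2%) were at least 2-fold lower than the control, against 4.15% of all genes measured, and none (0) was 2-fold higher, against 2.61%. On the HSC3 miR-504 array 28 members (23.1%) were 2-fold lower, against 3.56%, and none (0) was 2-fold higher, against 2.16%. On the miR-489 arrays 15 members in FaDu and 15 in HSC3 (12.4% each) were 2-fold higher, against 3.22% and 3.03% of all genes. Falls of 2-fold after miR-489 were seen for 0 members in FaDu and for 1 in HSC3 (LBR), against 6.12% and 5.53%. The rule used these same ratios, so these shares follow in part from it. Centring on the median of all probes instead raised the median of all genes measured by 0.34 to 0.43 on the log2 scale, and the split of members then became 20 lower and 2 higher on the FaDu miR-504 array and 9 lower and 2 higher on the HSC3 miR-504 array, while the members 2-fold higher after miR-489 rose to 34 in FaDu and 40 in HSC3.

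Of the members, 26 were at least 2-fold lower than the control after miR-504 in both lines (background 2.36%), 12 were at least 2-fold higher on both miR-489 arrays (background 2.06%), and 83 met neither condition. Centred on all probes, these counts became 9 lower and 32 higher, so which of the groups was larger depended on the centring. The 26 lay mostly close to the control after miR-489, with 21 of them within 0.5 of 0 on both miR-489 arrays. Among all members, 69 (57.0%) were above 0 on both miR-489 arrays and below 0 on both miR-504 arrays, a pattern found in 3.54% of the genes measured. Within 0.5 of 0 on both miR-489 arrays were 71 members (58.7%, background 52.7%), whereas 23 (19.0%, background 59.6%) were that close to 0 on both miR-504 arrays.

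**Figure D2:**
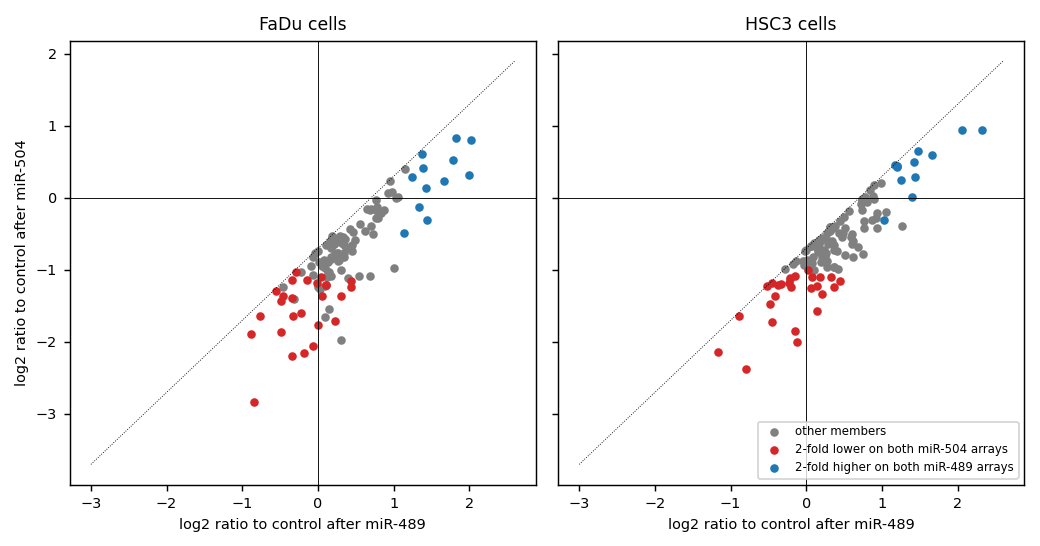
Log2 ratio to the control transfectant after miR-489 (x axis) and after miR-504 (y axis) for the 121 members in FaDu cells (left) and HSC3 cells (right); each point is 1 gene on 1 array per axis, and the dotted line marks a difference of 0.7. The 26 red members lie at or below −1 on the y axis in both panels, the 12 blue members at or above 1 on the x axis, and most grey members lie between, right of 0 and below 0.

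The member with the largest value of the smaller of its differences was CMPK (CMPK1), the kinase that phosphorylates CMP and UMP in pyrimidine nucleotide synthesis. Its log2 ratio was −0.18 on the FaDu miR-489 array and −0.12 on the HSC3 miR-489 array. It was −2.16 on the FaDu miR-504 array and −2.01 on the HSC3 miR-504 array, which is 22.4% and 24.9% of the control level. Thus both miR-504 arrays were low and both miR-489 arrays were near the control. Before centring, the background-subtracted Cy5 intensity of FaDu and HSC3 cells was 1124 and 983.5 after miR-489 and 334 and 349 after miR-504. The control (Cy3) intensity of CMPK was 852.5 and 951 on the FaDu arrays of miR-489 and miR-504 and 711.5 and 1029 on those of HSC3, so the low values were in the miRNA channel. The differences were 1.98 and 1.89.

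Several other leading members had the same form, near the control after miR-489 and low after miR-504. PRSS23, a secreted serine protease, had log2 ratios of 0.00 (FaDu) and 0.14 (HSC3) after miR-489 and −1.76 and −1.57 after miR-504, or 29.5% and 33.6% of the control. USP46, a deubiquitinating enzyme, was at −0.07 and −0.15 after miR-489 and at −2.05 and −1.84 after miR-504. CUTC, a protein linked to copper handling, was at 0.30 and 0.36 after miR-489 and at −1.37 and −1.24 after miR-504. On the probe used for each of these genes the miR-489 arrays lay within 0.5 of 0 and the miR-504 arrays beyond 2-fold. Another probe of PRSS23 was at −0.83 and −0.43 after miR-489, and another of USP46 at −0.79 and −0.14. Both of these probes were also beyond 2-fold lower after miR-504. COPZ1, the zeta subunit of the coatomer that coats vesicles returning from the Golgi to the endoplasmic reticulum, was at 0.44 and 0.20 after miR-489 and at −1.23 and −1.33 after miR-504. Another, dimmer probe of COPZ1 was at 0.68 and 0.82 after miR-489 and at −0.40 and −0.42 after miR-504. The level of COPZ1 against the control therefore depended on the probe. LGMN (legumain, a lysosomal cysteine protease) was at 0.22 and 0.33 after miR-489 and at −1.71 and −1.10 after miR-504. TAX1BP1, an autophagy receptor, was at 0.04 and 0.07 after miR-489 and at −1.10 on both miR-504 arrays. The gap between the lines was largest for LGMN within this group, with differences of 1.93 in FaDu and 1.44 in HSC3.

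Other members were below the control on all arrays and lower after miR-504 than after miR-489. ZMYM6, a zinc finger MYM-type protein, had log2 ratios of −0.85 and −0.80 after miR-489 in FaDu and HSC3 and −2.84 and −2.37 after miR-504, where its HSC3 level stood at 19.3% of the control. TIMM8B, a chaperone of protein import in the mitochondrial intermembrane space, was at −0.35 and −0.45 after miR-489 and −2.19 and −1.72 after miR-504. LBR, the lamin B receptor of the inner nuclear membrane, was at −0.88 and −1.17 after miR-489 and −1.89 and −2.14 after miR-504. For LBR the HSC3 difference of 0.97 therefore separated a lower value from one already beyond 2-fold. MAP3K7IP1 (TAB1), the activator of the kinase TAK1, likewise was at −0.77 and −0.89 after miR-489 and −1.64 on both miR-504 arrays.

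**Figure D3:**
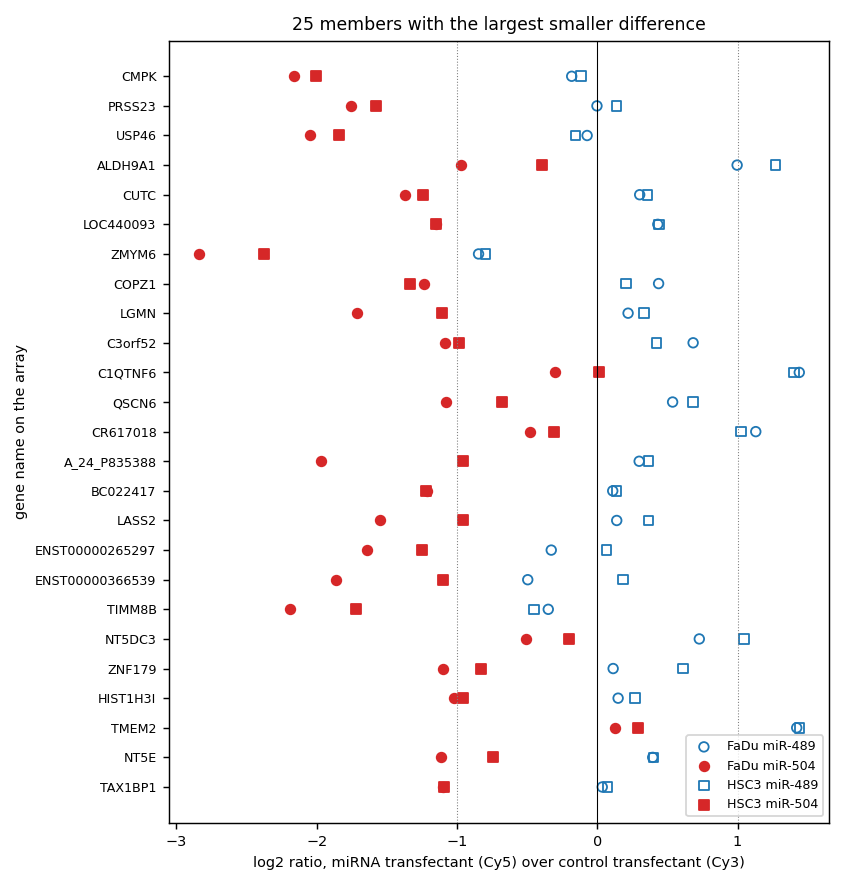
Log2 ratio to the control on each of the 4 arrays for the 25 members with the largest value of the smaller of their differences in the 2 lines, 1 point per array; dotted lines mark 2-fold. Filled symbols (miR-504) lie left of open symbols (miR-489) in every row as the rule requires, with CMPK, USP46, TIMM8B and ZMYM6 furthest left and C1QTNF6, TMEM2 and CR617018 separated mainly by high values after miR-489.

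Other genes with a 2-fold fall on both miR-504 arrays covered unrelated roles. SBDS, a ribosome maturation factor, was at −1.21 after miR-504 in FaDu cells and just past 2-fold lower in HSC3 cells. STARD7, which carries phosphatidylcholine to mitochondria, was at −1.39 and −1.47. RAPGEF1, an exchange factor that activates RAP1, was at −1.36 and −1.09. These 3 genes lay within 0.5 of 0 after miR-489. OMA1, a protease of the mitochondrial inner membrane, was at −1.36 and −1.19 after miR-504 and at −0.46 and −0.34 after miR-489. FLJ40432 (CCNYL1), a cyclin Y-like protein, was at −1.60 and −1.36 after miR-504 and at −0.22 and −0.41 after miR-489. The kinase STK35, the F-box protein FBXO33, SS18L2 and ZNHIT3 were between −1.44 and −1.12 on the miR-504 arrays. The remaining genes of this kind were the histone H3 gene LOC440093, described below, and the transcripts or probes BC022417, ENST00000265297, ENST00000366539, A_32_P200429 and A_24_P59147, whose genes were not named here.

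In 12 members the separation lay in a rise after miR-489, and these were singled out after their values were seen. GNB1L, a WD-repeat protein, had log2 ratios of 1.82 and 2.33 after miR-489 and 0.82 and 0.93 after miR-504. NDST1, an enzyme that modifies heparan sulphate, was at 1.99 and 1.67 after miR-489 and at 0.31 and 0.60 after miR-504. Both were therefore higher than the control after either miRNA and highest after miR-489. C1QTNF6, a secreted C1q- and TNF-related protein, was at 1.44 and 1.40 after miR-489 and at −0.30 and 0.01 after miR-504. TMEM2 (CEMIP2), a cell-surface hyaluronidase, was at 1.42 and 1.44 after miR-489 and at 0.13 and 0.29 after miR-504. SLC30A1, the zinc exporter of the plasma membrane, was at 1.33 and 1.26 after miR-489 and at −0.13 and 0.25 after miR-504. This group also held PTGER4, a prostaglandin E receptor, ZDHHC9, a palmitoyltransferase of RAS proteins, KBTBD6, an adaptor of a cullin ubiquitin ligase, TIMM17B, a mitochondrial import subunit, SPTLC2, a subunit of serine palmitoyltransferase, and the transcript CR617018.

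ALDH9A1, an aldehyde dehydrogenase of carnitine synthesis, showed opposite values after the miRNAs. It stood at 199.6% and 241.1% of the control after miR-489 and at 50.9% and 76.2% after miR-504, with differences of 1.97 and 1.66 on the log2 scale. C3orf52, a transmembrane protein, was at 0.68 and 0.42 after miR-489 and at −1.08 and −0.99 after miR-504. QSCN6 (QSOX1), a sulphydryl oxidase that forms disulphide bonds in secreted proteins, was at 0.54 and 0.68 after miR-489 and at −1.08 and −0.68 after miR-504. In these genes both miR-489 values were above the control and both miR-504 values below it. NT5E, the ecto-enzyme CD73 that forms adenosine from AMP, was at 0.40 on both miR-489 arrays and at −1.11 and −0.74 on the miR-504 arrays. Another probe of NT5E had differences of 1.12 and 0.93. A further one had 1.05 and 0.0046 and stood at 0.21 and 0.74 after miR-504, so the HSC3 result depended on the probe. LASS2 (CERS2), a ceramide synthase, was at 0.14 and 0.36 after miR-489 and at −1.55 and −0.96 after miR-504. The probe A_24_P835388, with no gene name, had the largest FaDu difference of all members, 2.27, and 1.33 in HSC3. NT5DC3, a member of the 5′-nucleotidase domain family, was at 0.73 and 1.05 after miR-489 and at −0.51 and −0.20 after miR-504, and ZNF179 (RNF112), a RING finger protein, at 0.11 and 0.61 and at −1.10 and −0.83.

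The most numerous gene family among the members was histone H3, the core histone whose tail carries many of the regulatory marks of chromatin. This family was grouped after the values were seen. Of 16 histone H3 genes measured 9 were members, namely LOC440093 (H3-5), H3F3B, HIST1H3B, HIST1H3C, HIST1H3G, HIST1H3I, HIST2H3A, HIST2H3PS2 and HIST3H3. Of 52 measured genes of histones H1, H2A, H2B and H4, 0 were members, where 0.775% of all genes measured were. The median difference over the 16 H3 genes was 1.02 in FaDu and 0.89 in HSC3 cells, against 0.13 and 0.054 over the 52 other histone genes, whose differences ran from −0.52 to 0.38 in FaDu and from −1.02 to 0.38 in HSC3. The 9 H3 members lay above this range by the rule, but the lowest H3 genes lay inside it, with 0.27 in FaDu and 0.16 in HSC3.

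LOC440093 (H3-5) had log2 ratios of 0.43 and 0.44 after miR-489 and −1.15 on both miR-504 arrays. H3F3B, which encodes the replication-independent variant H3.3, was at 0.31 and 0.37 after miR-489 and at −1.01 and −0.72 after miR-504. HIST1H3I was at 0.15 and 0.27 after miR-489 and at −1.02 and −0.95 after miR-504. Its FaDu difference lay in the control channel, since its Cy5 intensity was 709 and 700 on the miR-489 and miR-504 arrays while its Cy3 intensity was 427.5 and 907, and in HSC3 cells it lay in the Cy5 channel (1580 and 642.5, with Cy3 at 874.5 and 913.5). As ratios, all 3 genes were a little above the control after miR-489 and below it after miR-504. Over the 9 members the median was 0.17 and 0.27 after miR-489 in FaDu and HSC3, and −1.01 and −0.72 after miR-504. Each of the 9 was above 0 on both miR-489 arrays, but under loess normalisation only 4 were, under normexp with loess 3, and with the deposited log ratios 5. Each of the 9 was below 0 on both miR-504 arrays under these and all other ratio settings tried.

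The other 7 H3 genes, H3F3A, HIST1H3A, HIST1H3D, HIST1H3E, HIST1H3F, HIST1H3H and HIST1H3J, were also low after miR-504, with medians of −0.77 and −0.57. They were also lower than the members after miR-489, with medians of −0.25 and −0.41, and their differences were 0.27 to 0.68 in FaDu and 0.16 to 0.60 in HSC3. All 16 H3 genes were below 0 on both miR-504 arrays, the highest at −0.49 in FaDu and −0.48 in HSC3. H3F3A encodes the same H3.3 protein as H3F3B, and its difference was 0.50 and 0.29 where that of H3F3B was 1.31 and 1.08. The H3 genes encode near-identical proteins, and whether their probes hybridised to each other's transcripts was not tested, so the values of single H3 genes are uncertain. The other probes of H3F3B had differences of 1.43 and 1.15 and of 0.99 and 1.24, but a second, dimmer probe of HIST1H3B had 0.016 and 0.014 where the brightest had 1.02 and 0.96.

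**Figure D4:**
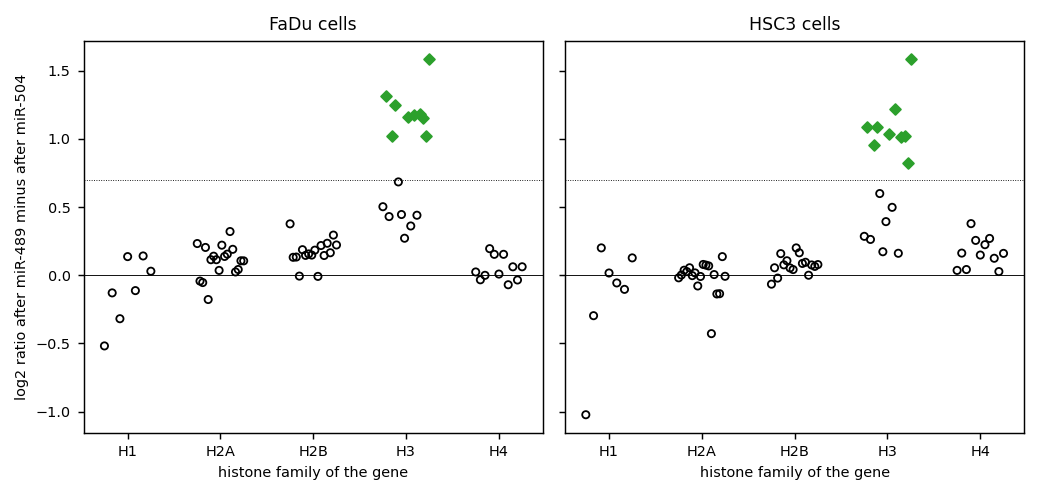
Difference between the log2 ratio after miR-489 and after miR-504 for each measured histone gene, by family, in FaDu cells (left) and HSC3 cells (right); 1 point per gene, filled diamonds are members, and the dotted line marks 0.7. The H3 genes run from 0.27 to 1.58 in FaDu and from 0.16 to 1.59 in HSC3, and no gene of the other families exceeds 0.38.

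Further members were sorted by their known roles after the values were seen, and no theme was tested. PRSS23, LGMN, COPZ1 and QSCN6 represented the secretory pathway and lysosome. On their brightest probes 4 of 4 were at least 2-fold lower than the control on the FaDu miR-504 array, and 3 of 4 on the HSC3 miR-504 array. Another probe of COPZ1 fell short of 2-fold on these arrays, at −0.40 and −0.42. In FaDu and HSC3 the shares were 37.2% and 23.1% over all members and 4.15% and 3.56% over all genes measured. Among 4 mitochondrial proteins, TIMM8B and OMA1 were 2-fold lower after miR-504 in both lines, whereas TIMM17B was 2-fold higher on both miR-489 arrays. CCDC56 (COA3), an assembly factor of cytochrome oxidase, was at −1.03 and −0.92 after miR-504. Another probe of CCDC56 was at −0.13 and −0.0024 after miR-504, with differences of 0.55 and 0.45. Genes of lipid metabolism also split, with STARD7 and LASS2 low after miR-504 and SPTLC2 at 1.37 and 1.18 after miR-489. Another probe of SPTLC2 was at 0.28 and 0.38 after miR-489, with differences of 0.27 and 0.081. ELOVL5, a fatty acid elongase, was at 0.65 and 0.89 after miR-489 and at −0.16 and −0.02 after miR-504. Its HSC3 difference lay mostly in the control channel, with Cy3 intensities of 1185.5 and 2348.5 on the miR-489 and miR-504 arrays. The Cy5 intensities of ELOVL5 there were 3304.5 and 3154.5. The mitochondrial and lipid genes therefore had no single direction against the control. The 4 secretory and lysosomal genes were all below it on both miR-504 arrays, but this depended on which genes were grouped. The secreted protein C1QTNF6, placed in another group, was at −0.30 and 0.01 after miR-504. In the array descriptions the word mitochondrial was found for 2 members (1.65%, against 2.35% of genes measured), and words for ubiquitin or ring finger for 2 (1.65%, against 1.57%).

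Protein turnover was represented by USP46, by CYLD, a deubiquitinase that restrains NF-kB signalling, at 0.32 and 0.56 after miR-489 and −0.54 and −0.18 after miR-504, by COPS4, a subunit of the COP9 signalosome, at 0.05 and 0.15 and −0.95 and −0.75, and by the proteasome subunit PSMA1 at −0.32 and −0.03 and −1.40 and −0.93. FBXO33 was at −0.35 and −0.21 and at −1.15 and −1.12. KBTBD6 went the other way against the control, at 1.24 and 1.20 after miR-489 and at 0.29 and 0.43 after miR-504. Both subunits of the hypoxia-inducible factor HIF-2, EPAS1 and ARNT, were members. EPAS1 was at 0.27 and 0.26 after miR-489 and at −0.86 and −0.76 after miR-504, and ARNT was at 0.17 and 0.08 and at −0.69 and −0.82. Neither reached 2-fold against the control on any array, and another probe of ARNT had differences of −0.31 in FaDu and 0.62 in HSC3. The HSC3 difference of ARNT lay more in the control channel. Its Cy3 intensity was 61 and 104 on the miR-489 and miR-504 arrays, and its Cy5 intensity 97 and 80.5. Of 6 members sorted to the cell surface and matrix, 4 were at least 2-fold higher on each miR-489 array, against 3.22% and 3.03% of all genes. These were C1QTNF6, NDST1, PTGER4 and TMEM2. On each miR-504 array 0 of the 6 were 2-fold lower, against 4.15% and 3.56%. THBS1 (thrombospondin 1) was at 0.42 and 0.14 after miR-489 and at −0.43 and −0.70 after miR-504. APLN, the ligand apelin, was at 0.16 and −0.14 and at −0.61 and −0.87, although another probe of APLN had differences of 0.13 and 0.050. Of the signalling genes, MAPKAPK3, a kinase downstream of p38, was at 0.27 and 0.10 and at −0.76 and −0.62, and DOK1, a docking protein of tyrosine kinases, was at 0.69 and 0.45 and at −0.39 and −0.32.

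The pathway lists described here contained no member, which at their small size says little about these pathways. Of the measured genes, 0 of 21 genes of G1 and S phase, 0 of 18 mitosis genes, 0 of 20 interferon-stimulated genes, 0 of 16 outputs of RAS-MAPK signalling, 0 of 10 of TGF-beta signalling, 0 of 14 Wnt genes and 0 of 20 RAB GTPases were members, at a background of 0.775%. Of the targets reported for miR-504, CDK6 had log2 ratios of −1.98 and −1.79 after miR-489 and −2.32 and −1.44 after miR-504, low after both miRNAs. FOXP1 was within 0.14 of 0 on all arrays. The reference genes GAPDH (1.03 and 0.92 after miR-489, 0.83 and 0.86 after miR-504) and ACTB (0.96 and 1.10, 0.80 and 1.02) stood above the array median by a similar amount on each array. In the descriptions of the array design the word transmembrane was found for 5 members (4.13%, against 0.878% of genes measured), zinc finger for 6 (4.96%, against 3.02%) and receptor for 6 (4.96%, against 2.90%), and ribosomal protein for 0 (against 1.85%). These counts follow the wording of the descriptions and not the role of the protein. Transmembrane included TMEM113, whose RefSeq symbol is WDR82, and receptor included ARNT and TRIP4.

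The difference of log2 ratios can be divided into a Cy5 part, between the miRNA transfectants, and a Cy3 part, between the controls hybridised to the pair of arrays. The median Cy5 part of the members was 1.11 in FaDu and 0.92 in HSC3 cells, whereas over all genes it was 0.048 and 0.052. The median Cy3 part was −0.011 and 0.026, against 0.010 and 0.071 over all genes. The Cy5 part alone reached 0.7 in 108 members in FaDu and 90 in HSC3, against 597 and 797 of all 15609 genes. Both parts belong to the difference that the rule used, so these counts follow in part from it. The Cy3 part made up the larger share of the difference in 3 members in FaDu and 9 in HSC3. HIST1H3I was among them in FaDu. In HSC3 they included ARNT (Cy5 part 0.36, Cy3 part −0.50), ELOVL5 (0.15 and −0.72) and TMEM16F (0.08 and −0.59). For the transcript THC2445517 the HSC3 Cy5 part was itself negative (−0.57, with a Cy3 part of −1.31). By the medians, most of the separation was therefore measured in the miRNA transfectants, but not for every member. The lower quartile of the Cy3 part was −0.11 in FaDu and −0.22 in HSC3 members, against −0.14 and −0.12 over all genes. In HSC3 the controls thus contributed more often to the difference in members than in all genes, which was not tested. A dye effect of a probe that was alike on all arrays cancels in the difference but not in the ratio to the control.

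The control levels of the members were as high as those of all genes, but a larger share of members than of all genes measured was 2-fold higher in HSC3 controls, which was not tested. The geometric mean Cy3 intensity had a median of 450.3 over the members (46.1 to 36973) and 449.7 over all genes. A 2-fold difference between the controls of the lines was found for 34 members (28.1%, against 21.8% of genes measured), of which 12 were higher in FaDu (9.92%, against 11.9%) and 22 in HSC3 (18.2%, against 9.98%). The log2 level in FaDu minus HSC3 controls was −3.91 for APLN, −3.38 for NT5E, −3.21 for THBS1 and −2.78 for TMEM2. It was 1.86 for TOB2 and 1.35 for LGMN. On its brightest probe NT5E nevertheless had differences between the miRNAs of 1.51 and 1.14 in FaDu and HSC3, and LGMN of 1.93 and 1.44. A further probe of NT5E had a difference of only 0.0046 in HSC3. Membership thus spanned genes of very unequal basal level in the lines.

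Each member was printed as a single spot per array, so each of its values rests on 1 spot. Probes with at least 5 spots had a median standard deviation of 0.063 to 0.073 on the log2 scale, which covers error within an array only. Other probes of the same genes did not enter the rule, although they come from the same hybridisations. For 34 member genes 42 other probes were measured on all arrays. Of these, 19 passed the same thresholds, 36 had a positive difference in both lines, and 9 were under 0.3 in both, with medians of 0.90 and 0.64. Over all 5133 other probes of genes measured, 58 passed and the medians were 0.047 and 0.051. PRSS23 (1.03 and 1.24), USP46 (1.24 and 1.80), COPZ1 (1.08 and 1.24), SBDS (1.28 and 1.08) and OMA1 (0.91 and 1.16) were among the genes whose other probe also passed. Other probes of some genes disagreed with the brightest one. The other probes of ZMYM6 were dim, with geometric mean Cy3 intensities of 44.1 and 70.7, and gave 0.66 and −0.40 and 0.48 and 0.03 in FaDu and HSC3. The other probe of C14orf130 was bright (1542) and gave 0.19 and −0.10, and that of ELOVL5 gave −0.35 and 0.047. The membership of these genes depended on the probe.

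**Figure D5:**
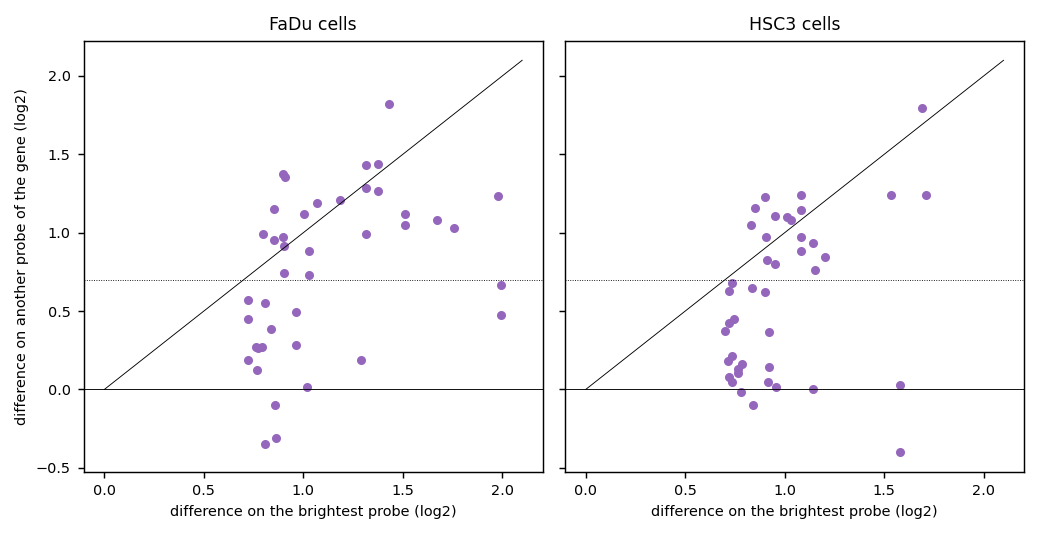
Difference between the miRNAs on 42 other probes of 34 member genes (y axis) against that on the brightest probe of the gene, which defined membership (x axis), in FaDu cells (left) and HSC3 cells (right); the solid diagonal marks equal values and the dotted line 0.7. Points lie on both sides of the dotted line, with medians of 0.90 in FaDu and 0.64 in HSC3.

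A RefSeq symbol was found by accession for 92 of the 121 members, and 30 of these symbols differ from the name on the array. For 79 of the 92 a promoter window from 250 bases before to 50 bases after the gene start was given. Its median GC content was 66.7% in members and 65.0% in genes measured. CCAAT, searched on both strands, was found in 45.6% of the windows of members and 38.0% of all windows, and TATAAA in 6.33% and 5.90%. The median gene length was 38.2 kb in members and 27.6 kb in genes measured. None of these properties was tested.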

How the data were processed

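The data were 4 Agilent 2-colour arrays, 1 per condition. The authors deposited unnormalised Feature Extraction output (version 9.5.3.1) giving spot and background intensity in each colour. It also holds a deposited log10 ratio per spot, dye-normalised by the same software, to which the submitters' value table was identical (largest difference 0). The deposited marks (0 or 1) for outliers and for signals well above background served as filters. In the study's methods the scanner is a ScanArray and the software DNASIS, and global normalisation follows log2 ratios of background-subtracted median intensity.

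Control spots and spots with an outlier mark were left out (118 to 137 per array), and no spot was saturated (0). Cy3 signals were well above background for 58.2% to 59.2% of spots and Cy5 signals for 61.2% to 62.6%. The log2 ratio of Cy5 over Cy3, after subtraction of the median background, was centred on the median of spots well above background in both channels (0.58, 0.65, 0.58 and 0.45 removed). Replicate spots were averaged, and each gene took its probe with the highest mean log2 Cy3 signal. Depth of an array is its signal over background; the number of arrays limits the precision.

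Members and lists were chosen with earlier results of these data known. The genes named were the 25 members with the largest value of the smaller difference, every member 2-fold lower on both miR-504 arrays, the 3 genes on each side of the threshold, list genes that are members, GAPDH, ACTB, CDK6 and FOXP1; some items that the rule or the lists would name are not reported here. Other genes were named after their values were seen. No test was run. The alternatives were other background corrections, normalisations, centrings, filters, thresholds and choices of probe. Python 3.11.15, pandas 2.3.3, numpy 2.4.6, matplotlib 3.10.9, R 4.3.3, limma 3.58.1 and the R package data.table (version 1.17.8) were used. The files do not state the build of their coordinates, and no gene coordinates are given.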

Additional observations from a re-analysis of the deposited data

How the results depend on the processing

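Every member kept a positive difference in both lines under each alternative ratio (121 of 121). The rule made this likely, since the ratios come from the same spots that were selected for a difference of at least 0.7. Among these ratios the deposited log ratios and the deposited table are the same values. Of the 121 members, 66 (54.5%) passed the rule under each alternative ratio. The rule does not say over which probes the array median is taken, and centring on all probes gave 159 genes in place of 121. The number of genes passing was 67 with normexp and loess (67 of them members), 67 with an intensity of at least 200 required, 670 without the filter on dim spots, 307 at a threshold of 0.5, 43 at a threshold of 1, 444 on FaDu alone and 293 on HSC3 alone. The median difference of the members was 0.92 in FaDu and 0.86 in HSC3 with normexp. Leaving the background in gave 0.93 and 0.88, normexp followed by loess gave 0.84 and 0.80, and the value was 1.03 in HSC3 when centred on all probes.

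Median log2 ratios after miR-504 in FaDu and HSC3 were −0.61 and −0.55 under normexp, −0.64 and −0.53 if no background was subtracted, −0.58 in HSC3 with normexp and loess, and −0.69 in FaDu with the mean of a gene's probes. After miR-489 they were 0.16 and 0.22 with loess and 0.16 and 0.19 with normexp and loess. The deposited log ratios and the deposited table gave 0.21 and −0.74 in HSC3 cells after miR-489 and after miR-504. Centred on all probes, the medians were 0.67 and 0.76 after miR-489 and −0.43 and −0.31 after miR-504 in FaDu and HSC3. Members 2-fold lower or higher than the control then numbered 34 higher on FaDu miR-489, 20 lower and 2 higher on FaDu miR-504, 0 lower and 40 higher on HSC3 miR-489, and 9 lower and 2 higher on HSC3 miR-504. Without background subtraction 24 were lower on FaDu miR-504, and 15 lower and 1 higher on HSC3 miR-504. On FaDu miR-489, 1 was lower with loess, with normexp and loess, with the deposited log ratios and with the deposited table, and 9 were higher on HSC3 miR-489 with normexp and loess. The number of members 2-fold lower on both miR-504 arrays ranged from 9 (centred on all probes) to 35 (deposited log ratios), and of those 2-fold higher on both miR-489 arrays from 8 (normexp and loess) to 32 (centred on all probes). In these cases the cause was not tested.

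With 1 array per condition the spread between cultures is unknown, leaving out an array would remove a condition, and background limits the fall measurable in dim genes. The share of members with a seed match was not run because no transcript or probe sequences were used. The difference between the miRNAs was taken within each line, but no paired test was run. Each group holds only replicate number 1, and that difference selected the members.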
